A study of Homo sapiens with 15 samples.

Results

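The cytosines described here lie around the start of the human 45S ribosomal DNA transcript, in the spacer upstream of it and in the first bases of the 5' external transcribed spacer (5' ETS). Members were all listed cytosines at positions below 1500 with at least 10 reads in at least 2 libraries of each group, a rule on position and coverage that used no methylation value. It gave 231 of the 2476 cytosines of the whole repeat that met the same coverage. Upstream of position 1, where the transcript starts, there were 96 members, 36 in CpG, 32 in CHG and 28 in CHH context (H is any base but G). The early 5' ETS held 135 members, 61 in CpG, 35 in CHG and 39 in CHH context. The 97 CpG members are the methylation readout, and the 134 others show how completely the same stretches were converted by bisulfite.

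Human ribosomal DNA is a tandem repeat of many copies. RNA polymerase I transcribes each active copy into a precursor that is cut into the 18S, 5.8S and 28S ribosomal RNAs, and the 5' ETS is the leading part of that precursor, removed during processing. Some copies are silent in most cells. Cytosine methylation near the start of the unit is known to be higher on silent than on active copies, so a level between 0 and full methylation can reflect a mixture of copies. Reads from all copies are pooled in these data.

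Genomic DNA came from NA12043, a human lymphoblastoid cell line (B lymphocytes immortalised with Epstein-Barr virus) grown in RPMI medium. The treatment named by the labels was 5 µM hexavalent chromium for 24 hours. The control group had 6 libraries, taken before the onset of exposure per the series' design text, in 2 sets of 3 that are called the first and second set here after the order of the title numbers. Libraries from days 3, 7 and 14 after the onset made up 3 exposed groups of 3 each. All groups are the same cell line, and the labels do not say whether replicates came from separate cultures. The extraction protocol speaks of 2 biological replicates, whereas each exposed group here has 3 numbered ones, so which of them are biological is not known. P-values here thus describe library-to-library spread only, part or all of which could be technical. The comparisons ask whether methylation differed from control at each time, and between days 7 and 14. The 3 comparisons with control share their control libraries. No unexposed library from day 3, 7 or 14 is among the 15, so chromium and time since the onset cannot be told apart.

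Whole libraries held 28716783 to 95852393 C and T calls, but coverage of the members was thin. Over sites, the median number of reads per library was 344 for the upstream CpG sites and 39 for those of the early 5' ETS, against 907 for the other tested CpG sites of the repeat. Members fell into 5 blocks, the upstream one from -1039 to -715 and 4 in the 5' ETS, from 275 to 394, 591 to 754, 1090 to 1145 and 1328 to 1369. No member lay between -715 and 275. Of 56 cytosines listed there in some library, 22 of them CpG, none met the coverage rule, so the promoter next to the start was not covered. For 44 of the 97 CpG members every one of the 15 libraries had at least 10 reads, and these give the means per library below: 23 upstream (-982 to -820) and 21 in the 5' ETS (296 to 659). Positions are those of the GenBank reference sequence of the human repeat, as deposited, and 1 strand was listed. Each CpG site is given as its percent of C among C and T reads. A site is called when its adjusted p, from edgeR's quasi-likelihood test over all 1022 CpG sites of the repeat with Benjamini-Hochberg adjustment, is under 0.05.

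In controls, the upstream spacer was highly methylated and the early 5' ETS was a patchwork. Over the 23 upstream sites the control libraries averaged 84.9% (lowest), 86.7% (median) and 90.1% (highest), a mean of 87.0% ± 1.89 (SD, n = 6). Within that stretch the site means ran from 73.5% to 99.0%. The highest control value upstream was at -826, with 99.0% ± 1.28 (SD, n = 6), and the lowest at -783, with 53.4% ± 12.8 (SD, n = 5). The site of median level, -920, had 83.4% ± 5.39 (SD, n = 6). At the ends of the block, the first site, -1038, had 98.1% ± 2.16 (SD, n = 5) and the last, -719, had 73.9% ± 6.19 (SD, n = 6). The CHG sites directly before -1038, -826 and -820 (-1039, -827 and -821) read 0% C in every group, days 7 and 14 included. Site -820 read 95.9% to 100% in the 15 libraries. Whether the reads at -1038, -826 and -820 show methylation of the genomic DNA was not tested. The mean over 23 sites includes -826 and -820. Nearest the transcript start, the 9 sites from -798 to -719 averaged 71.5% ± 4.09 (SD, n = 5), below the 23 sites farther out in every control library that covered them.

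Across the 5' ETS, control levels spanned almost the whole scale. The first site, 287, was also the lowest, at 0.0445% ± 0.0995 (SD, n = 5), with 479 to 7302 reads. At 9 bases from it, 296 was at 21.5% ± 4.86 (SD, n = 6), and the 10 sites from 296 to 352 averaged 21.1% ± 4.91 (SD, n = 6). Methylation then was higher with each run of sites downstream within the block, at 26.7% ± 5.20 (SD, n = 6) over the 4 sites from 368 to 383 and 85.4% ± 5.39 (SD, n = 5) over 390 and 394. In the block from 591 to 754, the 8 sites from 591 to 623 averaged 39.2% (31.4% to 46.8% in 5 controls), the 7 from 628 to 659 averaged 50.2% ± 4.92 (SD, n = 6), and the 11 from 679 to 750 averaged 11.2% ± 9.75 (SD, n = 3). Site 623, between 2 runs of intermediate level, had 2.19% ± 2.44 (SD, n = 6). The 11 sites from 1091 to 1145 averaged 78.6% ± 4.79 (SD, n = 6) and held the highest site, 1091, at 96.5% ± 5.14 (SD, n = 6). The site of median level was 602, at 41.6% ± 9.91 (SD, n = 6), and the last, 1369, had 27.3% ± 18.6 (SD, n = 4), in a run of 7 sites from 1328 that averaged 62.7% ± 12.3 (SD, n = 4).

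**Figure D1:**
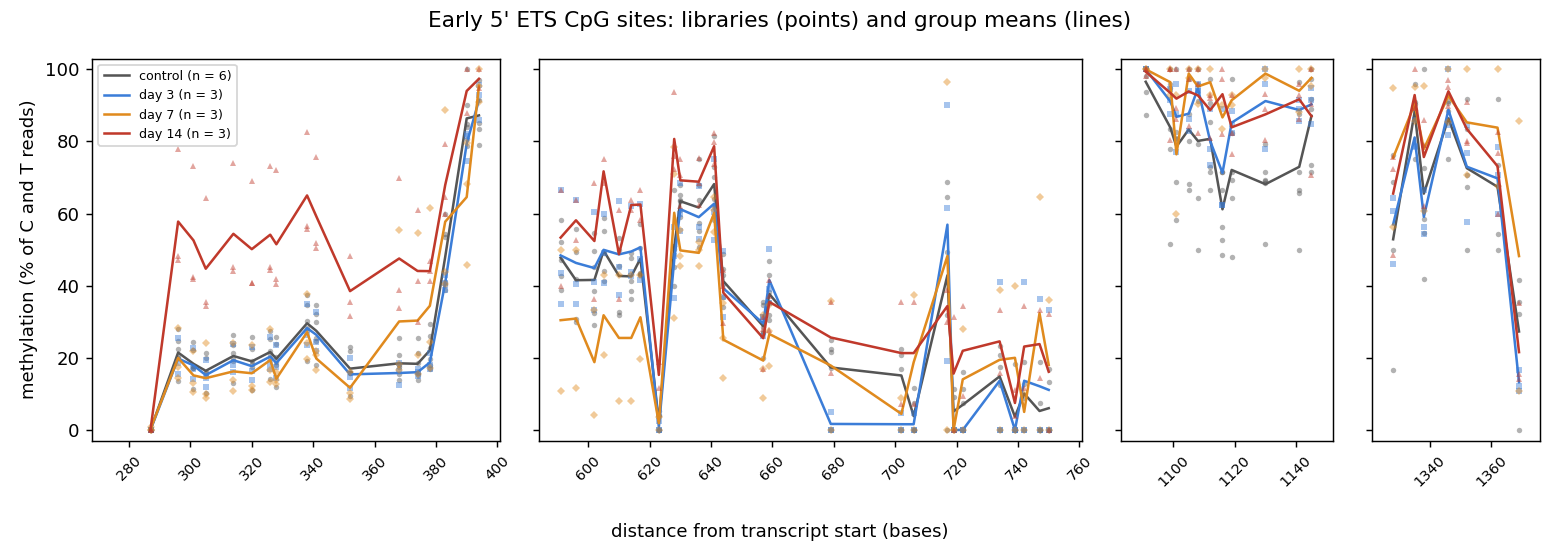
Percent methylation (y axis) of the early 5' ETS CpG sites against distance from the transcript start in bases (x axis, 4 blocks drawn to the same scale). Points are libraries with at least 10 reads at the site and lines are group means over those libraries. From 296 to 352 the day 14 points lie above all others, while 287 stays near 0 in every group.

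The stretch from 679 to 750 changed from library to library more than from group to group. All 11 of its sites read 0% in control replicate 3 of the first set and in day 7 replicate 1, and 10 of 11 read 0% in day 3 replicates 1 and 2. Control replicate 1 of the first set and day 14 replicate 2 had no site at 0%. At 717, day 3 replicates 1, 2 and 3 had 90.0%, 61.5% and 19.2%, and day 7 replicates 1 and 2 had 0% and 96.5%. These sites had 12 to 65 reads per library. PCR reads that carry no molecular identifier cannot be counted as separate molecules, so counting error understates the error here.

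The share of non-CpG cytosine reads that were C is called the unconverted share here, since reads that bisulfite did not convert count as methylated. Whether all such reads were unconverted cytosine was not tested. Upstream, the control libraries had 1.53% ± 0.229 (SD, n = 6) of CHG and CHH reads as C, and day 3 had 1.99% ± 0.563 (SD, n = 3). Day 7 replicates 1, 2 and 3 had 21.4%, 28.1% and 3.77%, and day 14 had 13.3% ± 0.593 (SD, n = 3). The day 7 and day 14 libraries were all above every control, and day 7 replicate 3 was far below its fellows. Over the whole early 5' ETS, controls had 0.413% ± 0.151 (SD, n = 6), day 3 had 0.442% ± 0.0412 (SD, n = 3), day 7 had 2.08% ± 1.34 (SD, n = 3) and day 14 had 4.86% ± 2.81 (SD, n = 3). It differed by block. From 275 to 394 it was 0.402% in controls, 1.95% at day 7 and 4.01% at day 14, whereas from 1090 to 1145, where only 4 CHG sites report it, it was 4.90% in controls, 61.6% in the 2 day 7 libraries with coverage and 42.7% at day 14. Control libraries reached 13.2% in that block and day 3 libraries 8.96%. From 1328 to 1369 controls had 1.58% (highest 7.33%) and day 14 had 2.36%, while day 7 replicates 1 and 2 stood apart, at 44.0% and 4.37%.

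Unconverted reads were spread over many sites upstream. Of the 32 upstream CHG sites, those with a mean above 5% numbered 1 in controls, 2 at day 3, 25 at day 7 and 23 at day 14, and of the 28 CHH sites 1, 4, 26 and 23. In the 5' ETS, 18 of 35 CHG sites and 6 of 39 CHH sites were above 5% at day 14, against 5 and 0 in controls. The 2 upstream non-CpG sites with the highest share stood apart already in controls: the CHG at -746, with 83.7% ± 4.07 (SD, n = 6) in controls and 64.7% at day 14, and the CHH at -984, with 27.5% ± 12.5 (SD, n = 5) in controls. Without them, 0.882% of upstream non-CpG reads were C in controls and 17.5% at day 7. The highest 2 of the 5' ETS were CHG sites directly before a CpG, 1107 and 1118. They went from 10.1% and 5.32% in controls to 88.1% and 77.1% in the 2 covered day 7 libraries.

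**Figure D2:**
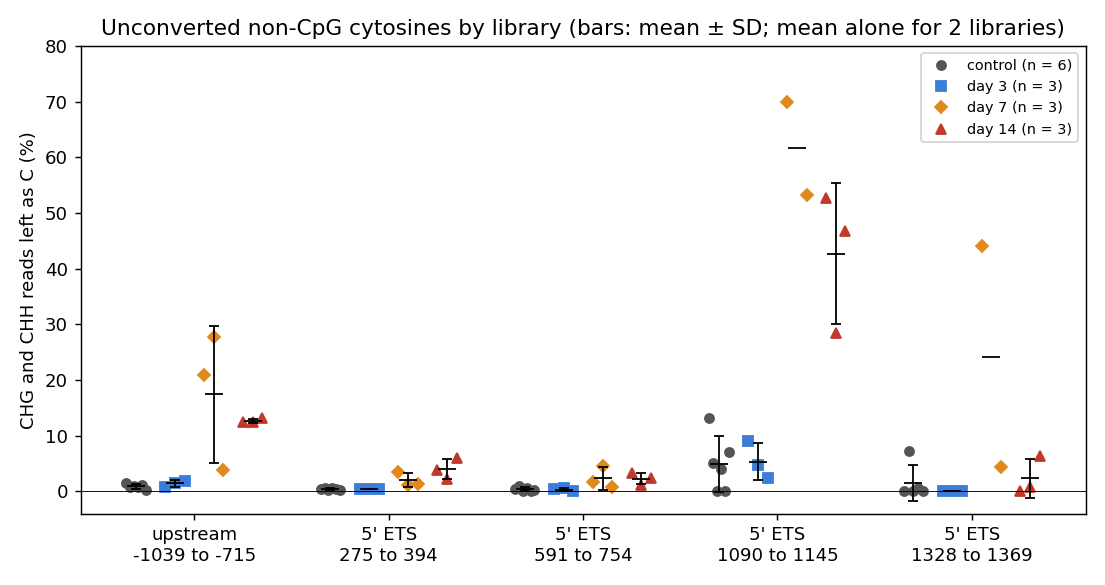
Share of CHG and CHH reads left as C, in percent (y axis), by block, without the non-CpG sites at -746 and -984. Each point is a library (libraries with no read in a block are absent), and bars are the mean and SD, or the mean alone for 2 libraries. Control and day 3 points lie at 13.2% or below, and highest from 1090 to 1145, where the day 7 points reach 70.0% and the day 14 points 52.7%. Day 7 also reaches 27.7% upstream and 44.0% from 1328 to 1369.

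At day 3 no member was called. Over all 1022 sites tested, 0.0% were called, whether by edgeR, limma or a quasi-binomial fit. At an unadjusted p under 0.05, edgeR had 1 of 36 upstream and 1 of 61 early 5' ETS sites, beside 4.01% of all tested sites. The other tools had 1 and 1 (limma) and 2 and 1 (quasi-binomial). The upstream sites averaged 86.5%, 87.9% and 88.1% in day 3 replicates 1, 2 and 3, a mean of 87.5% ± 0.868 (SD, n = 3), which differed from control by 0.560 points (SE 0.921). The 21 early 5' ETS sites averaged 35.7%, 25.9% and 28.4%, a difference of -1.86 points (SE 3.52) from controls at 31.9% ± 4.80 (SD, n = 6). Both day 3 ranges fell within the controls' ranges.

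The sites with the lowest unadjusted p at day 3 were named without a call. At -982, which held 98.1% (lowest), 98.6% (median) and 100% (highest) in controls, day 3 replicates had 95.4%, 96.1% and 97.2% (edgeR adjusted p = 0.788). At 1130 the day 3 mean was 91.2% ± 11.8 (SD, n = 3) against 68.1% ± 9.11 (SD, n = 6), with an edgeR adjusted p of 0.723. At -996 it was 56.6% ± 8.86 (SD, n = 3) against 77.1% ± 16.4 (SD, n = 5), and at 679 it was 1.67% ± 2.89 (SD, n = 3) against 17.3% ± 10.1 (SD, n = 5), with an edgeR adjusted p of 0.967 at both.

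At day 7, a few upstream sites were called higher, by small amounts, and a few sites of the 5' ETS block from 591 to 754 lower. Day 7 replicate 2 had the lowest value at each of the falls 602, 605 and 644 described below. Upstream, 7 of 36 sites were called, 6 higher and 1 lower, which is 19.4%, where 59.3% of all tested sites were called, 21.1% higher and 38.2% lower. In the early 5' ETS 7 of 61 sites were called (11.5%), 2 higher and 5 lower. The share of called sites in both stretches was thus below that of the whole repeat, where coverage was also deeper. The median difference was 3.35 points upstream and 0.532 points in the 5' ETS, against -3.59 points over all tested sites.

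Among the called upstream sites the rises were largest at -911, -904 and -975. Sites that were not called had larger differences, up to 14.5 points at -783, on 2 day 7 libraries. At -911 controls had 84.0% (lowest), 89.9% (median) and 91.5% (highest), and day 7 replicates 1, 2 and 3 had 98.6%, 93.7% and 100%. All 3 day 7 libraries lay above every control, and the difference was 8.31 points (edgeR adjusted p = 0.00361). At -904 day 7 replicates had 98.9%, 92.4% and 99.5% against 82.9%, 89.8% and 92.9% (lowest, median, highest) in controls, a rise of 8.26 points (edgeR adjusted p = 0.00507), with replicate 2 inside the controls' range. At -975 the rise was 7.65 points, from 82.4% ± 3.39 (SD, n = 6) to 90.1% ± 5.37 (SD, n = 3), with an edgeR adjusted p of 0.0284. Sites -969, -961 and -860 were also called higher, by 2.30, 6.77 and 5.76 points. The single fall, at -741, was from 87.0% ± 3.53 (SD, n = 6) to 73.8% ± 18.9 (SD, n = 2), and replicate 2, at 87.1%, lay within the controls' range.

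Unconverted shares were also higher at day 7 than in controls. Of the day 7 libraries, replicate 3 had the lowest share over the whole upstream stretch (3.77%). It had the highest values at -911 (100%) and -904 (99.5%) and the lowest at -975 (86.1%). The share differed between neighbouring sites. The lowest day 7 library had 14.6% C at the CHG at -917 and 0% at the CHH at -900. The cause of the rises was not tested. Within 100 bases of -911, non-CpG reads were C in 17.0% at day 7 and 0.894% in controls, without the CHG and CHH sites that read C already in controls. Removing the local unconverted share left 4 upstream sites called, 2 higher and 2 lower, beside 66.5% of all tested sites (5, with 2 higher and 3 lower, when -746 and the other non-CpG sites high in controls are kept out of that share), and -975 was then at an edgeR adjusted p of 0.147. Sites -911 and -904 stayed called, at 0.0190 and 0.0223. The upstream mean over 23 sites was 93.0%, 91.4% and 86.5% in day 7 replicates 1, 2 and 3, so the library with the fewest unconverted reads, replicate 3, was within the controls' range and the others were above it. That difference, 3.32 points (SE 2.10), was 90.3% ± 3.38 (SD, n = 3) against 87.0%, and with the unconverted share removed 88.4% ± 2.64 (SD, n = 3) against 86.9% ± 1.87 (SD, n = 6). Single libraries carried much of the count: without day 7 replicate 1 it was 2, without replicate 3 it was 11 and without control replicate 1 of the second set it was 4.

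**Figure D3:**
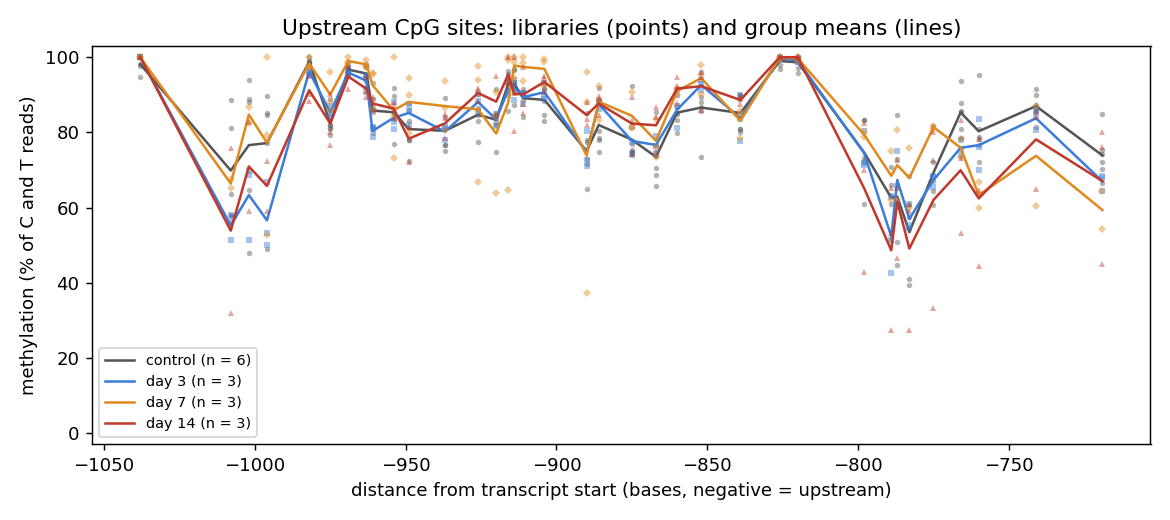
Percent methylation (y axis) of the 36 upstream CpG sites against distance from the transcript start in bases (x axis). Points are libraries with at least 10 reads, lines are group means. All group means lie at 73.5% or above between -982 and -820, with day 7 highest around -911 and day 14 lowest at -982.

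In the 5' ETS at day 7, falls were at 602, 605, 614, 630 and 644. At 644, the deepest of them, day 7 replicates had 25.5%, 14.3% and 35.3% against 34.0% (lowest), 41.8% (median) and 48.8% (highest) in controls. The fall was 16.2 points (edgeR adjusted p = 0.00501), and replicate 3 overlapped the controls. Site 602 was at 33.3% and 4.26% in the 2 covered libraries against 41.6% in controls (edgeR adjusted p = 0.0314), and 605 at 42.9% and 20.8% against 49.7% (edgeR adjusted p = 0.0438). The lower value was that of replicate 2 at all 3 sites. Without that library the edgeR adjusted p was 0.749 at 602, 0.678 at 605 and 0.139 at 644, and the 5' ETS count became 6 higher and 1 lower. At 602 and 605 a single day 7 library was then left, assumed to vary like the other groups. Site 630 differed, with 45.5%, 48.4% and 55.6% in day 7 replicates 1, 2 and 3, each below the lowest control at 59.0%. Day 7 and control did not overlap at 51.0% of all tested sites.

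The rise at 1130 was from 68.1% to 100% and 97.6% in the 2 covered day 7 libraries, above every control (highest 79.4%), with an edgeR adjusted p of 0.0065 (0.101 without replicate 2 and 0.119 in the quasi-binomial model). These libraries had 10 and 42 reads there, and non-CpG reads within 100 bases were C in 52.9% at day 7 and 1.31% in controls. At 747 the call (edgeR adjusted p = 0.0396) rested on 0% and 64.7% in 2 libraries. The count also moved with the controls, to 3 without control replicate 2 of the first set and 2 without control replicate 1 of the second, and to 13 without day 7 replicate 1. With the local unconverted share removed it was 8, of which 1 was higher and 7 lower.

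At day 14 most of the first covered block of the 5' ETS rose. Here 16 of 61 early 5' ETS sites were called, all higher (26.2%), where 65.2% of all tested sites were called, 22.6% higher and 42.6% lower. Of the 17 sites from 275 to 394, 13 were called higher, against 1 of 26 from 591 to 754, 2 of 11 from 1090 to 1145 and 0 of 7 from 1328 to 1369 by edgeR. None of those 7 was called by limma or the quasi-binomial model either, and none had an unadjusted p under 0.05 by any of the 3. The median difference over the 61 sites was 11.8 points, against -4.68 points over all tested sites.

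The 10 sites from 296 to 352 are those with at least 100 reads in every library, a run singled out after the values were seen, and all 10 were called higher. Their mean was 13.2% (lowest), 20.7% (median) and 27.3% (highest) in controls, 25.1%, 16.0% and 18.5% in day 3 replicates, 24.2%, 15.2% and 12.7% in day 7 replicates, and 43.7%, 43.6% and 71.0% in day 14 replicates 1, 2 and 3. All 3 day 14 libraries exceeded every control, day 3 and day 7 library at 10 of 10 sites. Over all tested sites, groups did not overlap at 58.5% between day 14 and control and 28.0% between days 14 and 7. Day 14 replicate 3 was the highest of the 15 libraries at each of the 10. The day 14 mean was 52.8% ± 15.8 (SD, n = 3), 31.7 points (SE 9.34) above control. At day 3 the difference was -1.23 points (SE 3.39) and at day 7 it was -3.76 points (SE 4.02).

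Single sites showed the same sizes. At 296 controls had 13.6% (lowest), 21.3% (median) and 27.9% (highest), and day 14 replicates had 48.3%, 47.1% and 78.0% (edgeR adjusted p = 0.000277), a log2 ratio of odds by limma of 2.42 (SE 0.439). At 338 controls had 19.2%, 29.2% and 37.5%, and day 14 replicates had 55.7%, 56.6% and 82.7% (edgeR adjusted p = 0.000449). At 301 controls had 11.3%, 17.6% and 24.4%, and day 14 replicates had 42.5%, 42.0% and 73.2% (edgeR adjusted p = 0.000305). None of these day 14 values overlapped the controls. The smallest rise of the 10 was at 352, from 17.0% ± 4.89 (SD, n = 6) to 38.5% ± 8.74 (SD, n = 3), 21.5 points.

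The order of these sites held while their level changed. Site 338 was the highest of the 10 in 15 of 15 libraries and 341 was second in 13, while 305 or 352 was the lowest in 14. These counts describe the sites in the same libraries, and neighbouring sites share reads.

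**Figure D4:**
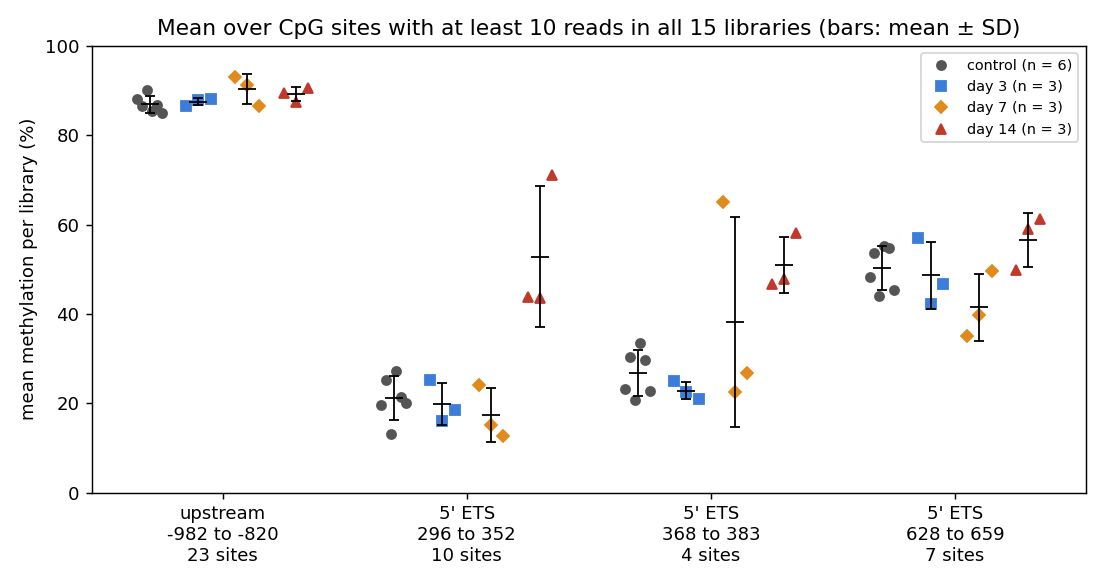
Mean methylation per library in percent (y axis) over the CpG sites covered by 10 reads or more in each of the 15 libraries, for the upstream stretch and 3 stretches of the 5' ETS. Points are libraries, bars the group mean and SD. From 296 to 352 the day 14 libraries lie at 43.6% to 71.0% and all others at 27.3% or below, whereas upstream all groups overlap.

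Conversion and depth both moved with the day 14 rise. The local unconverted share near 296 was 4.01% at day 14 against 0.402% in controls, and with it removed the 10 sites averaged 51.0% ± 15.8 (SD, n = 3) against 20.8% ± 4.84 (SD, n = 6). Their reads per site had a median of 528.5 at day 14 and 3962.5 in controls, and no site had fewer than 122. Site 287, in the same block, read 0%, 0.195% and 0% at day 14 on 398, 513 and 237 reads. It was near 0 in every group, and at day 14 below the unconverted share near it, 3.96%. Why it stayed near 0 was not tested. A count of 0 in 237 reads allows up to 1.27%, for counting error only. Leaving out day 14 replicate 3, the highest library, the 5' ETS difference over 21 sites fell from 21.8 points (SE 6.18) to 16.0 points.

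Downstream of 352, sites 368, 374 and 378 were also called higher, at 47.5%, 44.1% and 44.0% against 18.5%, 18.3% and 22.1%, with edgeR adjusted p-values of 0.0124, 0.0146 and 0.0198. Over 368 to 383, day 14 replicates had 46.7%, 47.9% and 58.1%, all above the highest control at 33.6%, and day 7 replicate 1 had 65.2% while day 7 replicates 2 and 3 had 22.5% and 26.8%. Beyond that block 628 rose to 75.9%, 72.5% and 93.8%, above the highest control at 66.7% (edgeR adjusted p = 0.0101). The other sites from 628 to 659 gave a mean with it of 56.6% ± 6.03 (SD, n = 3) against 50.2% in controls, a difference of 6.39 points (SE 4.02), with overlapping libraries. Sites 1116 and 1130 rose by 31.9 and 19.4 points (edgeR adjusted p = 0.00264 and 0.0281). Over 1091 to 1145, non-CpG reads within 100 bases were C in 25.3% at day 14, without the non-CpG sites high in controls. The 4 CHG members of that block alone had 42.7%.

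Upstream at day 14, 1 of 36 sites was called (2.78%, beside 65.2% of all tested sites), and it was lower. At -982 day 14 replicates had 95.1%, 90.2% and 88.4% on 123, 173 and 43 reads, each below the lowest control at 98.1%. The fall was 7.55 points (edgeR adjusted p = 0.000364), while the unconverted share nearby stood at 17.2% against 1.20% in controls. The 23 sites averaged 89.6%, 87.5% and 90.6%, a mean of 89.2% ± 1.57 (SD, n = 3) and a difference of 2.21 points (SE 1.19) with overlapping libraries. The 9 sites nearest the start averaged 73.9%, 47.9% and 66.1%, and the low value, of replicate 2, rested on as few as 11 reads. limma called 5 upstream sites, 1 higher and 4 lower, beside 65.5% of all tested sites.

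Between days 7 and 14, 12 of 61 early 5' ETS sites were called, all higher at day 14 (19.7%), and 4 of 36 upstream sites, all lower (11.1%), where 16.9% of all tested sites were called, 11.8% higher and 5.09% lower. The 5' ETS calls were the 10 sites from 296 to 352 with 605 and 630. The largest differences were at 605, from 31.8% ± 15.6 (SD, n = 2) to 71.7% ± 4.65 (SD, n = 2), at 341, from 19.8% ± 2.72 (SD, n = 3) to 59.3% ± 14.1 (SD, n = 3), and at 314, from 16.2% ± 6.95 (SD, n = 3) to 54.4% ± 16.9 (SD, n = 3). The edgeR adjusted p-values were 0.0300, 0.00199 and 0.00348, and the call at 605, on 2 libraries a group, was lost without each day 14 library in turn, without day 7 replicate 2 and in the quasi-binomial model. Over 296 to 352 the groups did not overlap, with a difference of 35.4 points (SE 9.77).

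The upstream falls were small. Site -982 went from 97.5%, 97.5% and 100% at day 7 to 95.1%, 90.2% and 88.4% at day 14 (edgeR adjusted p = 0.0243), and -963 from 97.5%, 97.5% and 99.2% to 94.7%, 89.4% and 90.7% (edgeR adjusted p = 0.0397). Neither overlapped. The call at -963 was lost in 10 of 13 alternatives. Site -969 fell by 4.16 points (edgeR adjusted p = 0.0249) and -911 by 7.31 points (edgeR adjusted p = 0.0329). The count was 0 without day 7 replicate 1 or without day 14 replicate 2, and 1 without day 14 replicate 3.

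Values at the 2 late times stand side by side for a site of each stretch, both against the same controls. At 296 the day 7 replicates had 28.1%, 17.3% and 14.4% beside a day 14 mean of 57.8% ± 17.5 (SD, n = 3). At -911 it was 97.4% ± 3.32 (SD, n = 3) beside 90.1% ± 6.52 (SD, n = 3), where controls had 89.1% ± 2.67 (SD, n = 6).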

How the data were processed

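Bisulfite PCR products of genomic DNA were sequenced as paired ends on an Illumina HiSeq. Tools listed in the submitters' processing notes, without roles, were methylKit, SAMtools 1.3.1, BSMAP 2.90 and Trim Galore, with the builds hg19 and GRCh37. Per the file headers, each deposited file lists cytosines with context, depth, the count of C and T reads and the fraction of C, which equalled C over C plus T in all 44176 rows within 1e-06. The lowest listed depth was 10 reads. Counts were used as deposited.

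CpG sites of the whole repeat with at least 10 reads in 2 libraries of each group (1022) entered 1 fit of their C and T counts in R 4.3.3 with edgeR 4.0.16. The quasi-likelihood model took all 15 libraries, with 1 term per library and 1 methylation term per group, and p-values were adjusted by Benjamini-Hochberg and called under 0.05. The scripts were tested on simulated data. Alternatives were limma 3.58.1 on log2 ratios with 0.5 added to each count, a quasi-binomial model, stricter coverage, removal of the unconverted share within 100 bases, the replicate number as a block, each control set alone and each library left out. Leaving out non-CpG sites above 20% C in controls from that share was chosen after seeing the data.

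In each stretch and comparison the text names up to 3 called rises and 3 called falls whose libraries all lay on 1 side of the reference mean, or the 2 lowest p-values where none was called. It also names the highest, lowest, median, first and last site of controls and the 2 non-CpG sites with the highest unconverted share. Other named sites were chosen after their values were seen. The members and lists were chosen with earlier results of these data known. Means over sites have no test. Intervals and floors (3 counts) cover counting error only. No sequence of the repeat was used here.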

Additional observations from a re-analysis of the deposited data

Results flagged for a closer look

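Of the 6 controls at -975, replicate 3 of the first set stood far above the others at 89.0%. Chance flags about 1 control group in 20 by this measure of a lone high or low library. Non-CpG cytosines, which carry no methylation comparison here, read as C above the control level in all day 7 and day 14 group means: 17.8% at day 7 and 13.3% at day 14 upstream, and 2.08% and 4.86% in the early 5' ETS. Methylation at days 7 and 14 differed, by edgeR's test between those 2 groups, at 6 named sites. Day 14 minus day 7 was -7.11 points at -982, -6.50 points at -963 and -4.16 points at -969, and 39.9 points at 605, 39.4 points at 341 and 38.1 points at 314.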

How the results depend on the processing

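Called sites picked by the naming rule kept the sign of their log2 ratio of odds in every alternative run. Other called sites, such as 747, are not covered by this statement. At day 7 the upstream count of 7 became 4 with the unconverted share removed and 3 against the first control set, and the 5' ETS count of 7 became 4 with 10 reads required in all libraries, 0 with 100 reads (11 sites remained, all in the block from 275 to 394, where none was called before), 2 and 3 against the first and second control set. At day 14 the upstream count of 1 became 5 by limma, 2 with the unconverted share removed (2 also without the high non-CpG sites) and 3 against the second control set. The 5' ETS count of 16 became 10 at 100 reads, where 11 sites remained, and the mean difference of 21.8 points became 31.2 with reads summed and 31.7 at 100 reads. Between days 14 and 7 the upstream count of 4 became 2 without the high non-CpG sites, and the 5' ETS mean of 24.4 points became 34.6 with reads summed and 35.4 at 100 reads. Upstream no site had 100 reads in all libraries, so that mean was not computed. Fewer sites were tested at stricter coverage. The 5' ETS means at 100 reads are those of the 10 sites from 296 to 352 given above. Summing reads weights each site by its depth, and those 10 sites are the deepest in that mean. The cause of the other changes was not tested.

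Same-numbered replicates did not deviate together (27 pairs, r from -0.274 to 0.174, 4 over 0.1, and 5 of 15 libraries closest to their own number). With the replicate block the day 7 5' ETS count was 4 and the upstream count between days 14 and 7 was 2.

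Leaving out 1 library at a time, the counts ranged from 0 to 0 in both stretches at day 3. Upstream they ranged from 2 to 11 at day 7, 1 to 3 at day 14 and 0 to 6 between days 14 and 7. In the 5' ETS they ranged from 2 to 13, 13 to 18 and 10 to 16. The day 14 upstream count was 3 without day 14 replicate 1 or control replicate 3 of the first set. The 5' ETS mean difference ranged from 16.0 to 25.5 points at day 14 and 18.6 to 28.1 points between days 14 and 7, lowest without day 14 replicate 3. The upstream mean difference between days 14 and 7, which has no test, ranged from -2.998 to 0.255 points. Sites 296, 301, 338 and -982 stayed called at day 14 in all 18 alternatives run for each. Over all named sites 286 alternatives gave the same side of the threshold and 47 lost the call. The 286 include all alternatives of the day 3 sites, which were never called and stayed uncalled. The 47 all fell on called sites.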
